A study of Mus musculus with 1536 samples.

Results

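The 8 genes described here encode metabotropic receptors for glutamate and GABA in serotonin neurons. They are the glutamate receptors Grm2, Grm3, Grm4, Grm5, Grm7 and Grm8 and the GABA-B receptor subunits Gabbr1 and Gabbr2, chosen by name from the 53263 genes of the deposited table, and all 8 had at least 1 read in at least 3 cells. For each gene the cells with a read were counted, its level was compared between dissections and plates, and its level was compared between cells with and without reads of Gad1 or Gad2, of Slc17a8, of Zeb2 and of Irx2.

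The cells were sorted from C57BL/6J mice 40 to 45 days old that carried a Sert-driven Cre and the Ai14 reporter, so that cells with a history of Sert expression made the red protein tdTomato. One dissection took the principal dorsal raphe (pDR, 290 cells on 5 plates) and the other is labelled as the whole dorsal raphe (709 cells on 11 plates); the paper states that it also took in the median raphe, and it is called DR and MR here. Each cell was 1 Smart-seq2 library without molecular identifiers, and the median cell had 827283 reads on genes, with 96834 to 2780443 per cell. A Cre driven by Sert also marks cells that made Sert only during development. Here Tph2 and Fev had reads in all 999 cells and Slc6a4, which encodes Sert, in 997. The paper describes the 999 cells as Tph2-positive, so their reads of Tph2 are no check on the sort. Slc17a6 and Slc32a1, transporters that define other glutamate and GABA neurons, had reads in 2 and 5 cells, and the oligodendrocyte gene Mbp in 744. The labels name no animal and no sex, so each dissection counts as 1 sample. For this reason no p-value is given, and the spread and direction over plates stand in its place. Of 1536 labelled cells, 537 had no column among the deposited values, so only the other 999 were analysed here.

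Both families are class C G protein-coupled receptors. Group I glutamate receptors, with Grm5, couple to Gq and phospholipase C, whereas group II (Grm2 and Grm3) and group III (Grm4, Grm6, Grm7 and Grm8) couple to Gi/o and lower cyclic AMP, often at axon terminals. The GABA-B receptor is an obligate pair in which Gabbr1 binds GABA and Gabbr2 carries the pair to the surface and couples it to Gi/o, and in raphe neurons it opens the GIRK potassium channels. Slc17a8 encodes the vesicular glutamate transporter Vglut3, Gad1 and Gad2 the enzymes that make GABA, and Zeb2 and Irx2 are transcription factors.

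Of the 8 receptor genes, 5 were read in many cells and 3 were rare. Gabbr1 had a read in 99.7% of pDR cells and 99.7% of DR and MR cells (95% intervals 98.1 to 100.0% and 99.0 to 100.0%). Gabbr2 had a read in 76.9% (71.6 to 81.6%) and 78.0% (74.8 to 81.0%). Grm7 had one in 64.5% (58.7 to 70.0%) and 91.5% (89.2 to 93.5%), intervals that lay far apart. Grm8 was read in 50% (44.1 to 55.9%) and 59.7% (55.9 to 63.3%) and Grm5 in 42.1% (36.3 to 48.0%) and 33.0% (29.5 to 36.6%). Grm2, Grm3 and Grm4 were each read in under 4% of cells of either dissection. The intervals are exact Clopper-Pearson intervals and cover counting error only. After cells were thinned to 250000 reads, which left out 1 pDR and 8 DR and MR cells with fewer, Gabbr2 was read in 66.8% and 72.3% of cells and Grm7 in 59.5% and 90.7%.

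**Figure D1:**
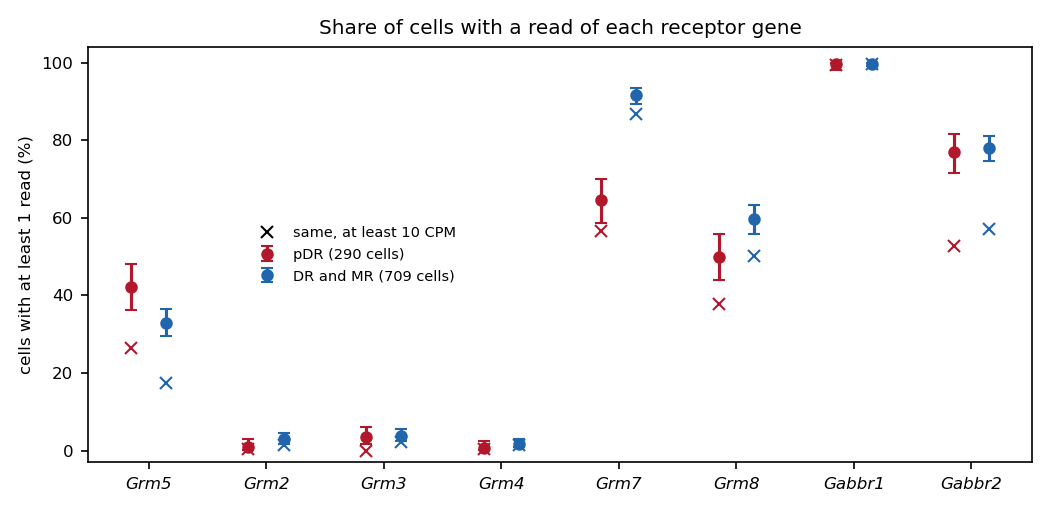
Share of cells with at least 1 read of each receptor gene (vertical axis, percent) in 290 pDR cells (red) and 709 DR and MR cells (blue). Circles carry exact 95% intervals and crosses give the share of cells with at least 10 CPM. Gabbr1 is near 100% in both dissections, Grm7 is at 64.5% in pDR and 91.5% in DR and MR, and Grm2, Grm3 and Grm4 lie near 0.

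Per kilobase of exon, which allows genes to be compared, the mean level over all 999 cells had the order Gabbr1 (15.1 CPM per kb, where CPM is the number of reads scaled to 1e6 reads on genes), Grm7 (8.32), Gabbr2 (2.85), Grm8 (2.15), Grm5 (0.808), Grm3 (0.248), Grm2 (0.0707) and Grm4 (0.0506). A cell had reads of 3.38 of the 8 genes on average in pDR and 3.71 in DR and MR, with an SD over plates of 0.325 and 0.205, and the median cell had 4 in both. No cell had more than 6 of the 8, and 1 cell of DR and MR had none.

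Grm5 (chromosome 7, 87584168 to 88134907 in GRCm38) is the Gq-coupled receptor among the 8 genes. Its mean level on the pDR plates SER12, SER13, SER25, SER39 and SER40 was 7.74, 9.31, 8.39, 8.49 and 5.05 CPM, and on the 11 DR and MR plates it had a lowest value of 3.08, a median of 7.84 and a highest of 14.2 CPM. The ranges overlapped, and the means were 7.79 ± 1.63 and 8.37 ± 3.47 CPM (SD, 5 and 11 plates). Cells with a read of it had a median of 13.4 CPM in pDR and 11.3 CPM in DR and MR.

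The group II receptors Grm2 (chromosome 9, 106643095 to 106656082) and Grm3 (chromosome 5, 9485541 to 9725170), known as Gi/o-coupled brakes on glutamate release, were rare. Grm2 had a read in 3 pDR cells and 21 DR and MR cells, and 470 of its 4894 exon bases are shared with a gene on the opposite strand, whose reads a count without strand cannot set apart. Grm3 had a read in 10 and 27 cells. The cells with Grm3 had a median of 13.6 CPM of it in DR and MR and 2.09 CPM in pDR. Its plate means were 0 to 0.328 CPM in pDR and 0 to 4.00 CPM in DR and MR, and overlapped. Grm3 is also a gene of astrocytes. The summed level of 7 astrocyte markers (Aqp4, Gfap, Gja1, Slc1a3, Aldh1l1, S1pr1 and Fgfr3) had a mean of 19.1 CPM in the 37 cells with Grm3 and 5.23 CPM in the other 962, with a median of 0 in both. Of the 37 cells, 3 were above 20 CPM on this sum, and its part in the reads of Grm3 was not tested.

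Among the group III receptors, which restrain transmitter release, Grm4 (chromosome 17, 27422387 to 27521403) was read in 2 pDR cells and 13 DR and MR cells. Its relative Grm6, best known from retinal bipolar cells, was read in 1 and 3 cells. Grm7 (chromosome 6, 110645581 to 111567230) and Grm8 (chromosome 6, 27275119 to 28135178) were the common ones, and a group III gene had a read in 72.4% of pDR cells and 96.3% of DR and MR cells. Grm7 and Grm8 were read together in 42.1% and 55.1% of cells, Grm7 alone in 22.4% and 36.4%, Grm8 alone in 7.93% and 4.51%, and neither in 27.6% and 3.95%.

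Since Grm7 and Grm8 parted most between the cell sets below, the DNA before their start sites is shown for 3 RefSeq starts (GRCm38.p6). Capitals mark CAGGTG or CACCTG, an E-box of the kind that Zeb2 is known to bind, searched on both strands, where each is the reverse complement of the other. Each sequence is written 5′ to 3′ on the strand of the gene.
Grm7 first start, chr6:110645262-110645511, plus strand: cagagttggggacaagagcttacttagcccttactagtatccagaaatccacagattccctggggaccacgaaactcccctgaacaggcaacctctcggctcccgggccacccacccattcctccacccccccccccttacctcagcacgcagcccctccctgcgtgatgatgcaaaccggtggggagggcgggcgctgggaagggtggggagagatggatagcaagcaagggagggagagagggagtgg
Grm8 first start, chr6:28135179-28135396, minus strand: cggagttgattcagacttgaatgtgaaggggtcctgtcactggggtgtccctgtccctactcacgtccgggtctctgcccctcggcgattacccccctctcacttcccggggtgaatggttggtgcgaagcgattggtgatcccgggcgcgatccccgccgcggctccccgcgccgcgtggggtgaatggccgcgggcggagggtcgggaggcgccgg
Grm8 downstream start, chr6:28126427-28126676, minus strand: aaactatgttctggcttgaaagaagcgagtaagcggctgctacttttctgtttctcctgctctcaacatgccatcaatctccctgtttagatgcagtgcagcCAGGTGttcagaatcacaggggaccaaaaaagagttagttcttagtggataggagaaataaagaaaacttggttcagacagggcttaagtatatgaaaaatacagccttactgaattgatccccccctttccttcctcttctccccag
Of these, only the downstream start of Grm8 held a match, which begins 148 bases before the start. That stretch lies within the span of Grm8 given above and outside its annotated exons, so it may be intron as well as promoter. A further start of Grm8 and a further start of Grm7, not printed, held no match. Among 32851 mouse promoters, 17.2% held one in the 250 bases searched, and 1 of the 9 promoters listed for 6 of the 8 genes did. Printed stretches end where an exon of the gene begins, so the first start of Grm8 is shown with 218 bases only. A match is a description of these letters and not a binding site.

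Grm7 was the receptor gene whose plates did not overlap between dissections. Its plate means in pDR were 29.0, 27.8, 36.4, 22.8 and 28.9 CPM, and in DR and MR the lowest was 40.8, the median 51.3 and the highest 94.3 CPM. Every DR and MR plate was above every pDR plate. Plates did not overlap, in either direction, for 1 of the 8 receptor genes and for 4.97% of the 25522 genes tested. The log2 difference, pDR minus DR and MR, was -0.97 with 1 CPM added to both means. A gene was called between dissections when this difference was at least 2-fold and the plates did not overlap, which held for 1.5% of all genes, for 2.88% of the 12834 genes with a mean of at least 1 CPM and for 0 of the 8 receptor genes. Grm7 lay so near 2-fold that small choices passed it, among them leaving the 50 highest genes out of the scaling and leaving out plate SER25, which gave -1.07.

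Grm8 had plate means of 15.3, 13.9, 13.7, 13.1 and 25.6 CPM in pDR, and 7.22, 24.8 and 38.3 CPM as the lowest, median and highest of DR and MR. These ranges overlapped. The lowest Grm8 and the highest Grm7 of the DR and MR plates came from the same plate, SER48, on which 57.9% of cells had a read of Zeb2, against 10.0 to 44.4% on the other plates. Among cells with neither Zeb2 nor Irx2, Grm7 on SER48 was at 50.1 CPM and on the other 10 plates at 39.9 to 61.7 CPM. The part of Zeb2-positive cells in the Grm7 and Grm8 values of SER48 was not tested.

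**Figure D2:**
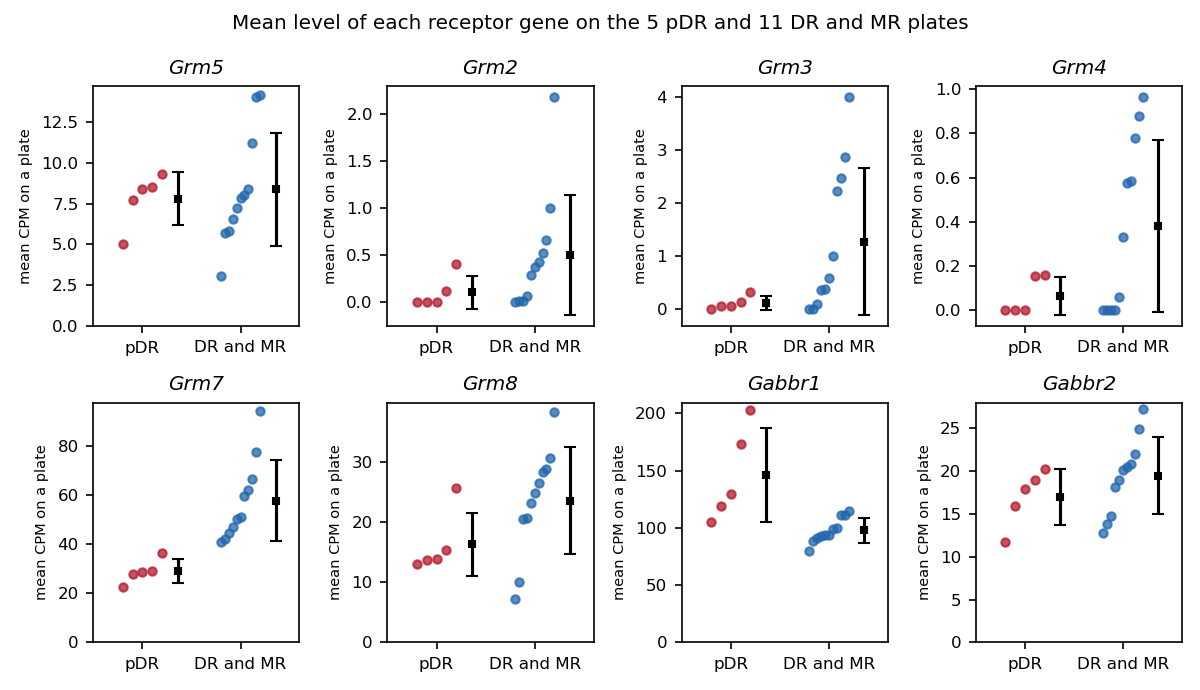
Mean CPM of each receptor gene (vertical axis, a separate scale for each gene) on each of 5 pDR plates (red) and 11 DR and MR plates (blue), with the mean and SD over plates in black. The 5 pDR values of Grm7, 22.8 to 36.4 CPM, lie below all 11 of DR and MR, and the ranges of the other 7 genes overlap.

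Of the GABA-B subunits, Gabbr1 (chromosome 17, 37045966 to 37075067) had plate means of 203, 173, 119, 129.6 and 105 CPM in pDR. In DR and MR the lowest was 79.5, the median 94.2 and the highest 115 CPM, so that 4 of the 5 pDR plates were above the DR and MR range and the log2 difference was 0.57. Gabbr2 (chromosome 4, 46662305 to 46991873) had 20.3, 15.9, 19.0, 17.9 and 11.8 CPM in pDR and 12.7, 20.2 and 27.2 CPM as the lowest, median and highest in DR and MR, with overlapping ranges.

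Reads of both subunits were found in the same cell in 222 of 290 pDR cells (76.6%, 71.2 to 81.3%) and 552 of 709 DR and MR cells (77.9%, 74.6 to 80.9%). Gabbr1 without Gabbr2 was seen in 67 and 155 cells, and Gabbr2 without Gabbr1 in 1 and 1. Cells without the pair thus nearly all lacked a read of Gabbr2. Per kilobase of exon, Gabbr1 was 7.98 times Gabbr2 in pDR, with 5.41 to 9.34 times on single plates, and 4.33 times in DR and MR, with 3.13 to 6.26 times. Gabbr1 was the higher of the pair in 98.6% and 95.3% of cells.

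The next comparisons ask whether the receptor genes differ between serotonin neurons with markers of GABA or glutamate as a second transmitter. In each plate with at least 5 cells on both sides, a contrast was the log2 ratio of the mean CPM plus 1 of the marker-positive cells to that of the other cells. A gene was called when the mean contrast over plates was at least 1 in size and at least 80% of plates had its sign. The added CPM understates differences of genes at low levels, such as Grm2, Grm3 and Grm4.

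In pDR, Grm7 and Grm8 were lower and Grm5 was higher in the 183 cells with a read of Gad1 or Gad2 than in the other 107. Grm7 in Gad-positive cells had plate means of 4.28 to 22.6 CPM, and in the other cells 47.4 to 60.5 CPM. These ranges did not overlap, and the contrast was -2.03 ± 0.77 (SD, 5 plates), below 0 on 5 of 5 plates. A read of Grm7 was found in 45.4% of Gad-positive cells and 97.2% of the others. Grm5 had plate means of 6.79 to 12.5 CPM against 2.04 to 7.25 CPM, which overlapped, with a contrast of 1.05 ± 0.51 that was above 0 on 5 of 5 plates. Grm8 was at 10.3 against 25.4 CPM, with a contrast of -1.24 ± 1.05, below 0 on 4 of 5 plates. So 3 of 8 receptor genes were called, where 2.09% of all genes were. Of the 12834 genes with a mean of at least 1 CPM, to which 5 of the 8 belong, 3.71% were called, and 3 of these 5. Gabbr1 (-0.09 ± 0.22) and Gabbr2 (0.06 ± 0.69) were not called.

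By reads of Slc17a8, Grm5, Grm7 and Grm8 were called in the reverse direction. In the 131 Slc17a8-positive pDR cells, Grm7 had plate means of 39.2 to 50.1 CPM, against 9.28 to 19.2 CPM in the other 159, a contrast of 1.46 ± 0.39, above 0 on 5 of 5 plates. For Grm8 it was 1.07 ± 0.72, with 5 of 5 plates above 0, and for Grm5 -1.35 ± 0.97, below 0 on 4 of 5. This was 3 of 8 receptor genes, against 1.71% of all genes and 3.12% of those with a mean of at least 1 CPM. Gabbr1 stood at 0.30 ± 0.13 and on the same side of 0 on 5 of 5 plates, without being called. These comparisons divide the same 290 cells as the ones by Gad, of which 47 had reads of both markers, and are not independent of them.

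Cells with 1 of the markers only were further apart in Grm7. In the 84 pDR cells with Slc17a8 and no Gad read, Grm7 was at 51.2, 52.1, 51.9, 51.9 and 53.8 CPM on plates SER12, SER13, SER25, SER39 and SER40. In the 136 cells with Gad and no Slc17a8 read, it was at 10.8, 10.9, 11.3, 0.314 and 5.77 CPM on the same plates. The level in the first set had an SD of 0.962 CPM over plates, and the contrast of Gad only against Slc17a8 only cells was -2.95 ± 1.38. The 47 cells with both had 19.8 to 46.5 CPM on the 4 plates with at least 5 such cells, between the other sets on each. A read of Grm7 was found in 36.8% of Gad only and 97.6% of Slc17a8 only cells.

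In the same sets, Grm5 was at 10.1, 10.8, 16.4, 15.3 and 10.2 CPM in Gad only cells and at 5.54, 9.45, 5.06, 2.35 and 2.55 CPM in Slc17a8 only cells. Every Gad only value was above every Slc17a8 only value, and the contrast was 1.28 ± 0.82. Grm8 was at 7.40, 10.2, 10.9, 4.96 and 7.60 CPM in Gad only cells and at 20.6, 22.7, 12.9, 23.1 and 65.1 CPM in Slc17a8 only cells, again without overlap, with a contrast of -1.53 ± 1.02. The value of 65.1 CPM on plate SER40 was far above the rest. Over all cells of SER40, 36.6% had a read of Grm8, the lowest share of the pDR plates. The highest single pDR cell was at 585 CPM of Grm8, and the median pDR cell with a read at 21.7 CPM. The part of single cells in the SER40 value was not tested. Called were 3 of 8 receptor genes, 1 higher and 2 lower, against 2.91% of all genes and 5.18% of those with a mean of at least 1 CPM, and the median contrast was -0.22 over the 8 and 0.00 over all genes.

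The calls of Grm5 and Grm8 in pDR depend on the processing and on single plates. Of the alternatives other than leaving out a plate, Grm5 was called by Gad in 8 of 12 (0.46 to 1.33), by Slc17a8 in 10 of 12 (-1.88 to -0.57) and between Gad only and Slc17a8 only cells in 9 of 12 (0.60 to 1.80), with the range of the contrast in parentheses. Grm8 was called in 11 of 12 (-1.33 to -0.81), 7 of 12 (0.64 to 1.14) and 10 of 12 (-1.63 to -0.98), and Grm7 in 12 of 12 (-2.17 to -1.46), 12 of 12 (1.09 to 1.52) and 12 of 12 (-3.37 to -1.85). Without SER39 the Gad contrast of Grm5 was 0.89, and without SER40 it was 0.97. Without SER40 the contrast of Grm8 was -0.94 by Gad and 0.76 by Slc17a8. With 4 plates left, all 4 must share the sign, so that Grm8 by Gad was also lost without SER12, SER13 or SER39, and Grm5 by Slc17a8 without SER12, SER25, SER39 or SER40, at mean contrasts still over 1 in size. Grm7 was called in all 3 pDR comparisons with any 1 plate left out.

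Beside these differences, the summed level of the 7 astrocyte markers and Slc1a2 was 34.5 CPM in Slc17a8-positive and 10.8 CPM in the other pDR cells, with plate means of 18.9 to 46.9 and 1.19 to 16.8 CPM. Slc1a2 alone was read in 571 of the 999 cells, and without it the sum was 4.51 and 4.67 CPM. By Gad the sum of 8 was 12.1 CPM in positive and 37.6 CPM in other pDR cells, and without Slc1a2 5.13 and 3.69 CPM. With cells above 20 CPM on the sum of 8 left out, Grm7 was called in all 3 pDR comparisons and the Slc17a8 contrast of Grm8 was 0.64.

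**Figure D3:**
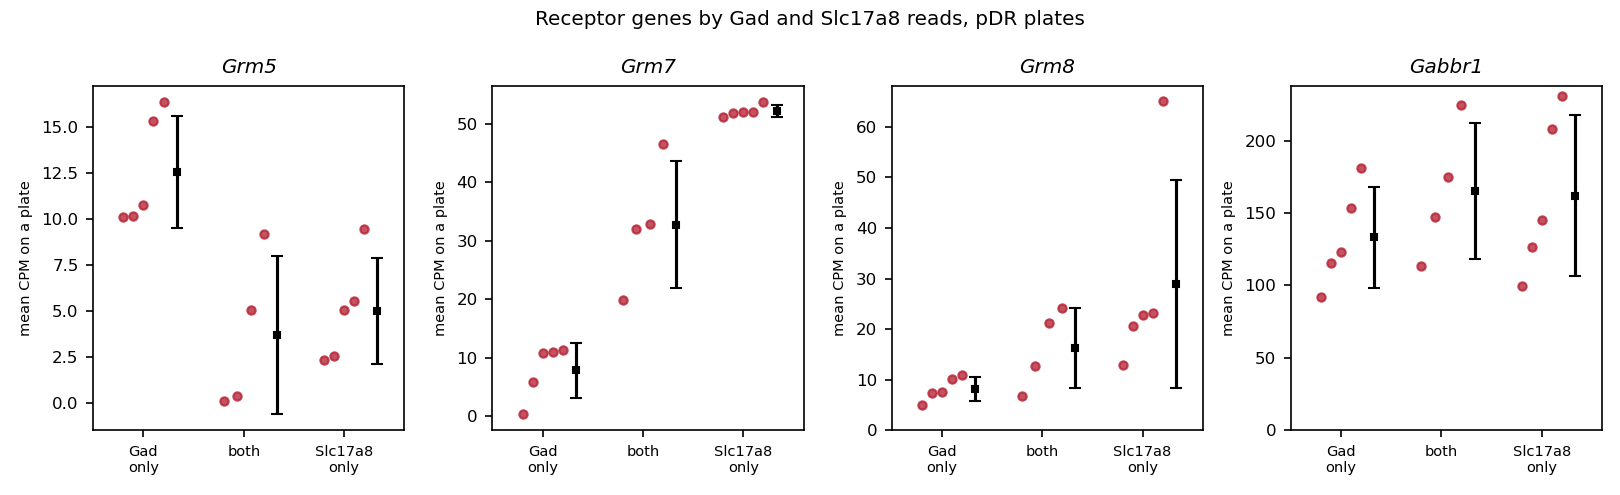
Mean CPM of Grm5, Grm7, Grm8 and Gabbr1 (vertical axes) on each pDR plate in cells with a read of Gad1 or Gad2 only, of both markers, and of Slc17a8 only, with the mean and SD over plates in black. Grm7 is at most 11.3 CPM in Gad only cells and 51.2 to 53.8 CPM in Slc17a8 only cells, Grm8 has the same order and Grm5 the opposite one.

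In DR and MR 0 of the 8 receptor genes were called in these 3 comparisons. By Gad, where 0.372% of all genes and 0.725% of those with a mean of at least 1 CPM were called, Grm7 had plate means of 20.3, 39.4 and 97.1 CPM in the 164 positive cells and 43.6, 54.6 and 93.5 CPM in the other 545 (lowest, median and highest). The contrast was -0.48 ± 0.42, below 0 on 10 of 11 plates, and its plate values of -1.18 to 0.05 did not overlap those of pDR, -3.20 to -1.27. Whether the contrast differs between dissections was not tested. Grm5 was at 0.58 ± 0.65, above 0 on 10 of 11 plates, and Grm8 at 0.23 ± 0.73. The summed oligodendrocyte markers had a mean of 533 CPM in Gad-positive and 104 CPM in other DR and MR cells, with plate means of 13.9 to 5253 and 45.3 to 276 CPM. The medians had the reverse order, at 18.1 CPM in Gad-positive and 25.3 CPM in other cells. By Slc17a8 the means were 96.6 CPM in positive cells and 491 CPM in the rest, and the medians 25.0 and 22.2 CPM. Of all 999 cells, 9 were over 1000 CPM of these markers. With the cells over 1000 CPM of these markers left out, the contrast of Grm7 was -0.49 by Gad and 0.35 by Slc17a8.

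By Slc17a8, where 0.462% of all genes and 0.919% of those with a mean of at least 1 CPM were called in DR and MR, Grm7 was at 0.36 ± 0.33, Grm8 at -0.45 ± 0.80 and Grm5 at 0.15 ± 1.20. Between cells with 1 marker only, where 1.61% and 3.12% were called, Grm7 was at -0.95 ± 0.61, below 0 on 9 of 10 plates, with 33.3 CPM in 75 Gad only and 61.5 CPM in 429 Slc17a8 only cells. With cells that had a read of Zeb2 or Irx2 left out, a choice made after seeing the data, the Gad contrast of Grm7 in DR and MR was -1.21 and passed the call. Between cells with 1 marker only it was then -1.60, and Gabbr2 was also called, at -1.13. Leaving out plate SER48 or SER56 also took Grm7 past the call between these sets, at -1.06 and -1.01. In pDR, Zeb2 was read in 3 cells and Irx2 in 10.

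Grm8 was nearly absent from Zeb2-positive cells of DR and MR. Of 147 such cells, 6.12% (2.84 to 11.3%) had a read of it, against 73.7% (69.8 to 77.3%) of the other 562. Its plate means were 0, 0.940 and 6.94 CPM in Zeb2-positive cells and 14.9, 31.5 and 55.1 CPM in the others (lowest, median and highest of 11 plates). The ranges did not overlap, and the contrast was -3.90 ± 1.32, below 0 on 11 of 11 plates. Grm7 had plate means of 60.3, 87.5 and 123 CPM in Zeb2-positive and 37.0, 44.6 and 61.8 CPM in other cells, and its contrast of 0.91 ± 0.39 was above 0 on 11 of 11 plates but under the call. In all, 1 receptor gene of 8 was called, against 4.22% of all genes and 8.07% of those with a mean of at least 1 CPM. The median depth was 884326 reads in Zeb2-positive and 869119 in other cells, and after thinning the shares with Grm8 were 5.44% and 70.8%.

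Slc17a8 was read in 119 of the 147 Zeb2-positive cells. Grm8 was read in 9 of these 119 and in 0 of the 28 without Slc17a8, which allows a share of up to 10.7% (3 counts of 28 cells), or 12.3% by the exact interval. Grm5 was read in 55.5% of the 119, at 18.3 CPM, and in 21.4% of the 28, at 3.65 CPM. Within Slc17a8-positive cells, a choice made after seeing the data, Grm5 was called between Zeb2-positive and other cells, at 1.32, where Grm8 was at -3.68 and Grm7 at 0.70. Without plate SER48, which held 44 of the 147 cells, the contrast of Grm8 was -4.03 and that of Grm7 0.89. The Zeb2 contrast of Grm5 over all cells was 0.91 ± 1.45 and passed the call without SER55 (1.06), SER56 (1.10) or SER67 (1.10).

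In Irx2-positive cells Grm8 stood at the edge of the call. It was read in 79.2% of the 154 Irx2-positive cells of DR and MR, with plate means of 14.5, 34.9 and 84.0 CPM, and in 54.2% of the other 555, with 4.27, 18.9 and 39.1 CPM. The contrast was 0.995 with an SD of 0.99, above 0 on 10 of 11 plates. It passed the call without SER50, SER51, SER52, SER55, SER57, SER60, SER64 or SER67, at 1.00 to 1.11. With Zeb2-positive cells left out of both sides, 5 of them Irx2-positive, the contrast was 0.49, a choice made after seeing the data. Grm7 was at -0.58 ± 0.38, below 0 on 11 of 11 plates, and 0 of 8 receptor genes were called, against 1.18% of all genes and 2.25% of those with a mean of at least 1 CPM.

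Grm3 was read in 10.4% (6.06 to 16.3%) of Irx2-positive and 1.98% (0.993 to 3.52%) of other cells, at 3.54 against 0.317 CPM. Its contrast of 1.33 ± 1.65 was above 0 on 7 of 11 plates, too few for a call. Grm4 was read in 0 of 154 Irx2-positive cells, which allows a share of up to 1.95% (3 counts of 154 cells), or 2.37% by the exact interval. In the others it was read in 2.34% (1.25 to 3.97%). With a read of Grm4 in only 13 DR and MR cells, whether these shares differ was not tested. Among the 32 cells with both Irx2 and Gad reads, Grm8 was at 77.3 CPM and Grm5 at 29.9 CPM, and in the 122 Irx2-positive cells without Gad reads at 25.5 and 9.23 CPM. These small sets were not compared over plates.

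Zeb2 and Irx2 were read in the same cell in 5 of 709 cells. Grm8 in the 142 Zeb2 only cells was at 0 CPM on 7 of 11 plates and at 6.94, 1.68, 1.26 and 0.121 CPM on the other 4. In the 149 Irx2 only cells its plate means were 14.5, 35.6 and 84.0 CPM, and in the 413 cells with neither they were 11.7, 24.1 and 44.7 CPM (lowest, median and highest). The Zeb2 only values thus lay below all values of both other sets, with a read in 4 of 142 cells, and the contrast against Irx2 only cells was -4.60 ± 1.24. Of the 5 cells with both Zeb2 and Irx2, 5 had a read of Grm8. An E-box match lies before 1 start of Grm8, inside the gene and printed above, and 17.2% of the mouse promoters searched held such a match. Whether Zeb2 binds there or acts on Grm8 was not measured.

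Grm7 in the same sets was at 60.3, 87.5 and 126 CPM in Zeb2 only cells, 39.9, 48.7 and 61.7 CPM in cells with neither, and 27.0, 40.5 and 71.3 CPM in Irx2 only cells. It had a read in 142 of 142 Zeb2 only cells, and the contrast against Irx2 only cells was 1.09 ± 0.44, above 0 on 11 of 11 plates. Called were Grm7, higher, and Grm8, lower, so 2 of 8 against 4.05% of all genes and 7.58% of those with a mean of at least 1 CPM. Grm5 was uneven in both sets, with plate means of 1.96 to 42.8 CPM in Zeb2 only and 0.271 to 30.3 CPM in Irx2 only cells, and 1.59 to 9.96 CPM where neither was read. The contrasts of Gabbr1 and Gabbr2 were 0.12 ± 0.32 and -0.33 ± 0.81.

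**Figure D4:**
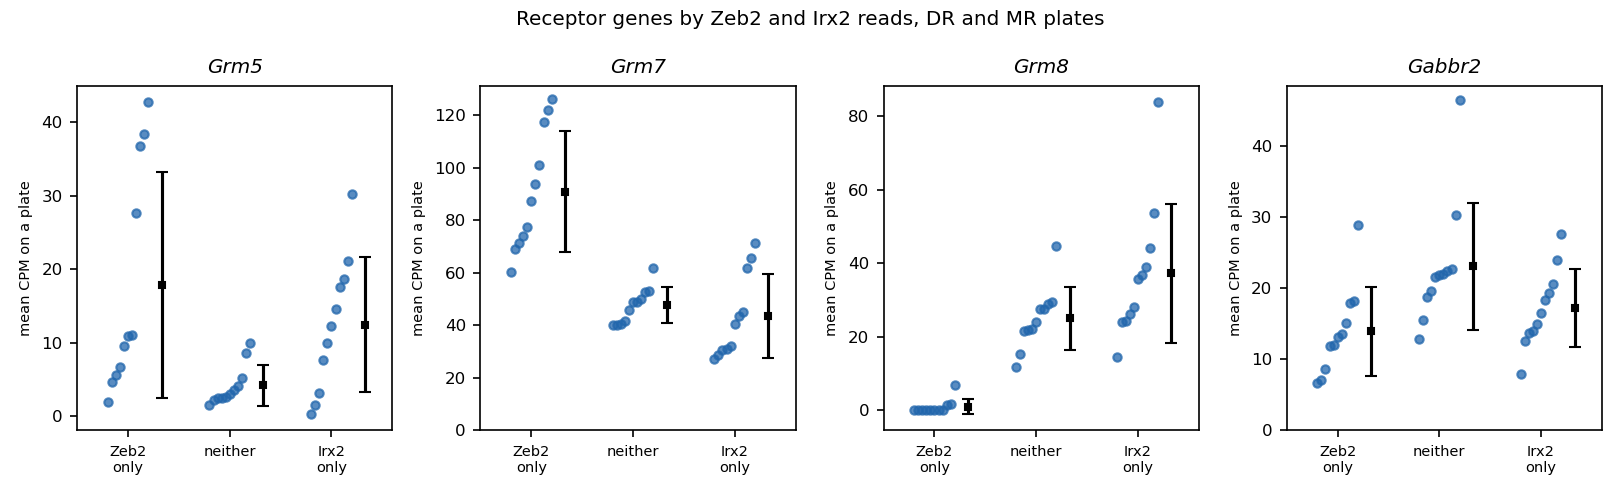
Mean CPM of Grm5, Grm7, Grm8 and Gabbr2 (vertical axes) on each of the 11 DR and MR plates in cells with a read of Zeb2 only, of neither gene, and of Irx2 only, with the mean and SD over plates in black. Grm8 lies at or near 0 in Zeb2 only cells and at 14.5 to 84.0 CPM in Irx2 only cells, and the median plate of Grm7 is highest in Zeb2 only cells.

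**Figure D5:**
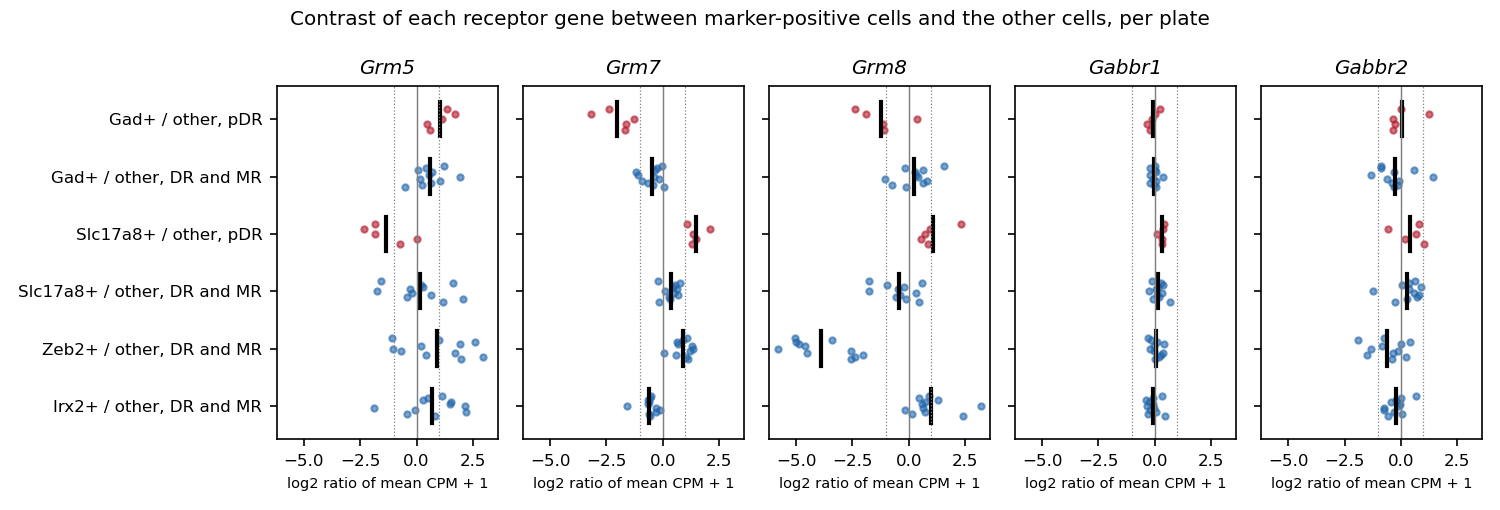
Contrasts of 5 receptor genes (panels) between marker-positive and other cells (rows), as the log2 ratio of mean CPM plus 1 (horizontal axis). Each point is 1 plate (red, pDR; blue, DR and MR), bars are means over plates and dotted lines mark -1 and 1. Grm5, Grm7 and Grm8 have called contrasts by Gad and Slc17a8 in pDR and Grm8 also by Zeb2, while the points of Gabbr1 lie between -1 and 1.

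The GABA-B subunits were called in none of the 9 comparisons. The mean contrast of Gabbr1 ran from -0.25 to 0.30 and that of Gabbr2 from -0.60 to 0.43, whereas Grm7 was called in 4, Grm8 in 5 and Grm5 in 3. Grm2, Grm3 and Grm4 were also called in none.

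Genes that work with these receptors were followed as a list of 35, of which 34 were tested. In each dissection 20 of them had a read in over 50% of cells, and 9 were called in at least 1 of the 9 comparisons, as were 7.87% of all genes and 14.4% of those with a mean of at least 1 CPM. Of the Gi/o alpha subunits to which group II, group III and GABA-B receptors couple, 4 were tested (Gnai1, Gnai2, Gnao1 and Gnaz) and 0 were called. The GIRK subunit Kcnj5 was lower in Gad-positive cells of DR and MR (-1.19 ± 0.36). It was rare there, with a read in 5.78% of cells and a mean of 1.21 CPM, close to the added 1 CPM. Kcnj6 was lower in Zeb2-positive cells (-1.06 ± 0.61) and Kcnj3 was lower in Gad only than in Slc17a8 only cells of DR and MR (-1.07 ± 1.02). The auxiliary GABA-B subunit Kctd8 was higher in Gad-positive pDR cells, at 5.79 against 0.926 CPM (1.86 ± 0.79, 5 of 5 plates), and in Zeb2-positive cells (1.40 ± 1.65, 9 of 11 plates). Kctd16, of the same kind, was higher in Slc17a8-positive pDR cells (1.19 ± 0.65) and lower in Zeb2-positive cells (-1.02 ± 0.57). Its level was low, with means of 1.73 CPM in pDR and 2.06 CPM in DR and MR and a read in 22.1% and 30.0% of cells. Ajap1, which binds the GABA-B receptor, was lower in Zeb2-positive cells (-1.49 ± 0.92).

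Of the phospholipases downstream of group I receptors, Plcb1, Plcb3 and Plcb4 were called. Plcb1 was lower in Gad-positive (-1.83 ± 0.62) and higher in Slc17a8-positive (2.73 ± 0.94) pDR cells. Plcb4 was at 335 CPM in Zeb2-positive and 85.1 CPM in other DR and MR cells (1.96 ± 0.41, 11 of 11 plates), and Plcb3 at 8.21 and 0.587 CPM (2.24 ± 0.75). On the whole list of 34, the partner genes called higher and lower were 1 and 1 by Gad, 2 and 0 by Slc17a8 and 1 and 2 between Gad only and Slc17a8 only cells in pDR. In DR and MR they were 0 and 1, 1 and 0 and 0 and 4 in the same comparisons, 3 and 3 by Zeb2, 0 and 0 by Irx2 and 2 and 1 between Zeb2 only and Irx2 only cells, and the median contrast over the list ran from -0.11 to 0.08 over the 9 comparisons.

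Across all 999 cells, after the plate means of ln(CPM + 1) were subtracted, 11518 genes with a mean over 2 CPM were compared with each receptor gene. Grm7 was most like Slit2 (r = 0.51), Nrxn3 (0.46) and Mgll (0.45), and Grm8 most like Epha5 (0.40), Nyap2 (0.40) and Pcdh10 (0.40). Grm5 was most like Tacr3 (0.41), Nmbr (0.39) and Pbx3 (0.34), and Grm3 most like Nmbr (0.40) and Spp1 (0.37). The rank correlations of Grm3 with Nmbr and Spp1 were 0.28 and 0.17, and Grm3 was read in only 37 of the 999 cells. Gabbr1 was most like Cdip1 (0.40), Scg2 (0.39) and Fkbp1a (0.36), though the rank correlations of these 3 genes with it were 0.01, 0.15 and -0.05. No gene reached 0.3 with Gabbr2, Grm2 or Grm4. Among the 8 genes themselves the values ran from -0.17 (Grm5 and Grm7) to 0.20 (Grm3 and Grm5). The cells share plates, depth and the dropout of low genes, so these values are a description only.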

How the data were processed

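Single tdTomato-positive cells were sequenced after Smart-seq2. The authors demultiplexed the reads with bcl2fastq 2.19.0.316, aligned them to mm10 with STAR 2.6.1a and counted them per gene with HTSeq 0.11.2 without strand, removed Y-linked genes, left out cells with under 300 genes or 50000 reads, and deposited CPM values (reads scaled to the same total on genes in each cell). The annotation version used for counting was not given in the sources used here. Whole reads were recovered for 100% of 9386862 deposited CPM values above 0, within 0.001 read. A total of 0 columns were left unused. Without molecular identifiers, reads are not independent molecules.

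Here, cells were grouped by the labelled brain region. The 25522 genes with a read in at least 3 cells were tested, and a cell was positive for a marker from 1 read. Contrasts and calls were made per plate as defined in the report, and no test or p-value was possible without labelled animals. Plates are not separate animals. The paper gives 6 brains for pDR and 8 for DR and MR, against 5 and 11 plates here, so some DR and MR plates share an animal. Which brains a plate holds is not labelled. Python 3.11.15, NumPy 2.4.6, SciPy 1.17.1 and pandas 2.3.3 were used, and the contrast step was tested on simulated data. Exon lengths and positions came from GENCODE M21 and promoters from RefSeq (GRCm38.p6), which listed 6 of the 8 genes. Doublets were not called. The members, gene lists and alternatives were chosen with earlier results of these data known. Named genes were the 8 members, the markers, Grm6, at most 12 partner genes that were called (else of highest mean), and at most 3 genes with r of at least 0.3 for each member. The alternatives that left out Zeb2, Irx2, astrocyte marker (other than Slc1a2) or oligodendrocyte marker cells, or kept Slc17a8 cells, were chosen after seeing the data. A result on 1 further gene is not reported here, and that gene was left out of the partner list.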

Additional observations from a re-analysis of the deposited data

Results flagged for a closer look

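In groups of 4 to 10 plates, a plate whose gap to its nearest neighbour took up most of the whole range was picked out by Dixon's criterion. This was the case in 7 of 48 groups. Chance alone picks about 1 in 20 for independent values of a normal distribution. These groups share plates and include genes near 0 and shares near 100%, so no excess can be read from the count. Grm8 stood out on pDR plate SER40, with a mean of 25.6 CPM and a Slc17a8 contrast of 2.33, where 36.6% of 41 cells had a read of it. Grm7 stood out on pDR plate SER39, where its contrast of Gad only against Slc17a8 only cells was -5.33. Gabbr2 had a Gad contrast of 1.26 on pDR plate SER39. The share of cells with a read of Gabbr1 was 97.6% of 41 cells on pDR plate SER40 and 100% on each other pDR plate. Grm2 stood out on pDR plate SER12, at 0.404 CPM and with a Slc17a8 contrast of 0.95, from a gene read in 3 pDR cells.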

How the results depend on the processing

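Of the 299 recomputed counts and shares that answer a comparison, 240 kept their value and 59 moved, where a count kept it within 1.5 times (2 for 3 included), a share within its exact 95% interval and a mean or contrast within 1 SD over plates. Of 1880 values of single receptor genes 1832 kept theirs and 48 moved, and 0 changed sign among called values. Leaving out 1 plate cannot move a mean contrast by 1 SD over plates. The marker contrasts with 1 plate left out, which are among the 1880, thus kept theirs by construction. The cause of these moves was not tested. Grm7 was called in all 3 pDR comparisons, and Grm8 by Zeb2, under every alternative run. With a pseudocount of 10 CPM, which shrinks every contrast, the called receptor genes numbered 1 by Gad, 1 by Slc17a8 and 1 by Gad only against Slc17a8 only in pDR and 1 by Zeb2 only against Irx2 only, and the called partner genes 2 in place of 9. With 0.1 CPM they numbered 1 by Slc17a8, 1 by Gad only against Slc17a8 only and 1 by Irx2 in DR and MR, and the partner genes 15. With the cells pooled over plates they numbered 1 by Gad only against Slc17a8 only in DR and MR, 3 by Zeb2, 1 by Irx2 and 4 by Zeb2 only against Irx2 only. With cells high in astrocyte markers left out they numbered 1 by Gad only against Slc17a8 only in pDR and 1 in DR and MR, 2 by Zeb2 and 1 between dissections, and without counting Slc1a2 among the markers 1 by Gad only against Slc17a8 only in DR and MR and 1 between dissections. Scaling without the 50 highest genes gave 1 between dissections. With Zeb2 or Irx2 cells left out they numbered 1 by Gad and 2 by Gad only against Slc17a8 only in DR and MR. By Zeb2 they numbered 2 with at least 10 cells a side and 2 within Slc17a8-positive cells, and by Irx2 1 with markers positive from 10 CPM, 1 without cells high in oligodendrocyte markers and 1 without Zeb2 cells. At least 10 cells a side left too few plates for Gad only against Slc17a8 only in DR and MR, so that this was not run.

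With 1 plate left out at a time, the called receptor genes numbered 1 to 3 by Gad and 1 to 3 by Slc17a8 in pDR, 3 by Gad only against Slc17a8 only in pDR and 0 to 1 in DR and MR, 1 to 2 by Zeb2, 0 to 1 by Irx2, 2 by Zeb2 only against Irx2 only and 0 to 1 between dissections, where Grm7 was called without SER25, SER57, SER60, SER63 or SER64. They numbered 0 by Gad and 0 by Slc17a8 in DR and MR, and the partner genes 7 to 9. The mean number of receptor genes per cell was 3.27 to 3.46 in pDR and 3.68 to 3.74 in DR and MR, and the share with both GABA-B subunits 71.1 (without SER12) to 79.5% and 76.6 to 79.0%. When a gene counted from 5 reads, the mean number was 2.90 and 3.37 and the share with both subunits 57.6% and 65.3%. From 10 CPM these were 2.74 and 3.16, and 52.1% and 57.0%. With cells thinned to 250000 reads, 9 shallower cells left out, the share was 66.4% and 72.3%. The number of most-like genes was 14, with 9 of them among the 15 found without plate centring and 5 among the 12 found by rank. Grm2, Grm3 and Grm4 are too rare for their contrasts to be read. No paired analysis was possible between dissections because no plate holds both, and the marker contrasts were already taken within plates.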
